A study of Mus musculus with 6 samples.

Results

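The genes described here store, carry and convert vitamin A in the liver. They are 9 genes: Rbp4, Lrat, Rdh10, Rdh11, Dhrs3, Dhrs4, Aldh1a1, Cyp26a1 and Rarb. Every probe set of the array that the platform annotation assigns to exactly 1 of these symbols was taken, which gave 13 of the 45101 probe sets, for 9 of the 18194 genes named in this way. Lrat, Rdh10, Rdh11 and Dhrs4 each had several probe sets, and the other 5 genes had 1 each. The samples were livers of C57BL/6 mice, 8 weeks old when feeding began, that ate either chow (Labdiet 5008) or a ketogenic diet (F3666), which is very rich in fat and very poor in carbohydrate, for 6 weeks. Livers were taken in the morning from mice that had eaten freely, and no mouse carried a genetic alteration that the labels mention. RNA was measured on 6 Affymetrix arrays, 3 per diet, from 2 to 3 animals in each group. The sources used here do not say whether 1 array held 1 animal or a pool, nor how much vitamin A each diet contained. The p-values therefore measure only the spread between these arrays, which may in part be technical.

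The liver holds most of the body's vitamin A. Hepatocytes take up retinyl esters from the diet and release retinol into blood bound to retinol-binding protein, while hepatic stellate cells keep the reserve as retinyl esters in lipid droplets. Retinol and retinal are interconverted by dehydrogenases and reductases, retinal is oxidized irreversibly to retinoic acid, and retinoic acid activates nuclear receptors before CYP26 enzymes break it down. Activated stellate cells lose their droplets and make matrix.

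The receptor Rarb and the retinoic acid hydroxylase Cyp26a1 are textbook targets of retinoic acid receptors, which bind direct repeats spaced by 5 bases (DR5). Promoters of 8 of the 9 genes were matched in the RefSeq promoter table of build GRCm38.p6, which gives 13 promoters for them. A pair of the words GGTCA or GTTCA with 6 free letters between the words, on either strand, was found in 2 of these 13 promoters, those of Rarb and Cyp26a1. Of all 32851 RefSeq promoters 0.247% held such a pair. The 250 bases before each start are shown, on the strand of the gene and with the match in capitals, because they are the 2 members whose promoters hold the searched pair. Rarb lies on the minus strand (chr14:16575477-16575726) and its match spans bases 52 to 37 before the start. Cyp26a1 lies on the plus strand (chr19:37697558-37697807), its match spans bases 32 to 17 before the start, and the words read GTTCACCCAAAGTTCA on the opposite strand.
Rarb: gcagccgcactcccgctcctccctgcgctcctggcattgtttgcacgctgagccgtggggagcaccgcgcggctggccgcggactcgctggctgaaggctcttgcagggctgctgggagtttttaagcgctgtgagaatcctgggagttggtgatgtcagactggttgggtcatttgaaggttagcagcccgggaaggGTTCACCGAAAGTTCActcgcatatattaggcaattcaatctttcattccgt
Cyp26a1: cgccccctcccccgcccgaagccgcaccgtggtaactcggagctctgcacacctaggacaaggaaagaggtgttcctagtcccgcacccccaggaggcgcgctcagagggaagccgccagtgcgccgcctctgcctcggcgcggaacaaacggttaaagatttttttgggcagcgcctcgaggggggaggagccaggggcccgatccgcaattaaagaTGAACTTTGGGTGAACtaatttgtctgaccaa
A match is a run of letters and not evidence of binding. The other 2 spacings searched, with 3 and with 2 free letters between the words (DR2 and DR1), were found in 0 of the 13 promoters, against 0.399% and 0.402% of all promoters.

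On the ketogenic diet the transcript of Lrat, the enzyme that esterifies retinol for storage, was higher than on chow, and it was the gene among the 9 with a probe set past the threshold. Transcripts of the secreted carrier Rbp4, of the retinal-oxidizing enzyme Aldh1a1 and of the receptor Rarb lay at overlapping levels on both diets. Rdh11 was lower and Dhrs4 higher on probe sets that did not pass the threshold. Of the 13 probe sets 1 was higher and 0 were lower in limma's test with Benjamini-Hochberg adjustment over all 22515 probe sets tested (threshold 0.05). Across those, 4.64% passed, 4.08% higher and 0.564% lower. At an unadjusted p under 0.05, 3 of the 13 were higher and 1 was lower, and 20% of all probe sets were below that value. Signals of the 2 diets were fully separated on 5 of the 13 probe sets, 3 higher and 2 lower, while 26.7% of all probe sets did not overlap, 21.6% higher and 5.06% lower. The count of calls among these genes was thus near the share over the whole array. Their median log2 difference, ketogenic minus chow, was 0.00, and that of all tested probe sets was 0.22.

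Several properties of the arrays bear on every value given here. The hybridization controls, RNA added in known amount, had a mean signal of 642 ± 8.53 on chow and 499.5 ± 18.4 on ketogenic arrays (SD, n = 3), and the actin probe sets had a 3' over 5' ratio of 2.08 ± 0.107 and 1.59 ± 0.082 (SD, n = 3). Both measures did not overlap between the diets, with exact permutation p = 0.1, the smallest that 3 against 3 arrays allow (two-sided). The 2% trimmed mean signal ranged from 39.9 to 53.5 on chow and from 45.8 to 61.0 on ketogenic arrays, with exact permutation p = 0.3. Values were kept as deposited. Scaling the arrays to a common median, to a common trimmed mean, by quantiles or to the hybridization controls moved the median log2 difference of all probe sets by -0.11, -0.21, -0.23 and 0.36. The share of changed probe sets that were higher was 87.8% as deposited and 77.4%, 66.2%, 64.5% and 97.5% under these scalings. The part of RNA quality and labelling in the results was not tested. Of 14 hepatocyte marker probe sets 0 were higher and 1 was lower in limma, against 4.08% and 0.564% of all probe sets. The lower one was that of Tat, with a log2 difference of -2.03 (adjusted p = 0.0148). The summed signals of the 14 were 91387 to 96038 on chow and 76844 to 86686 on ketogenic arrays.

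**Figure D1:**
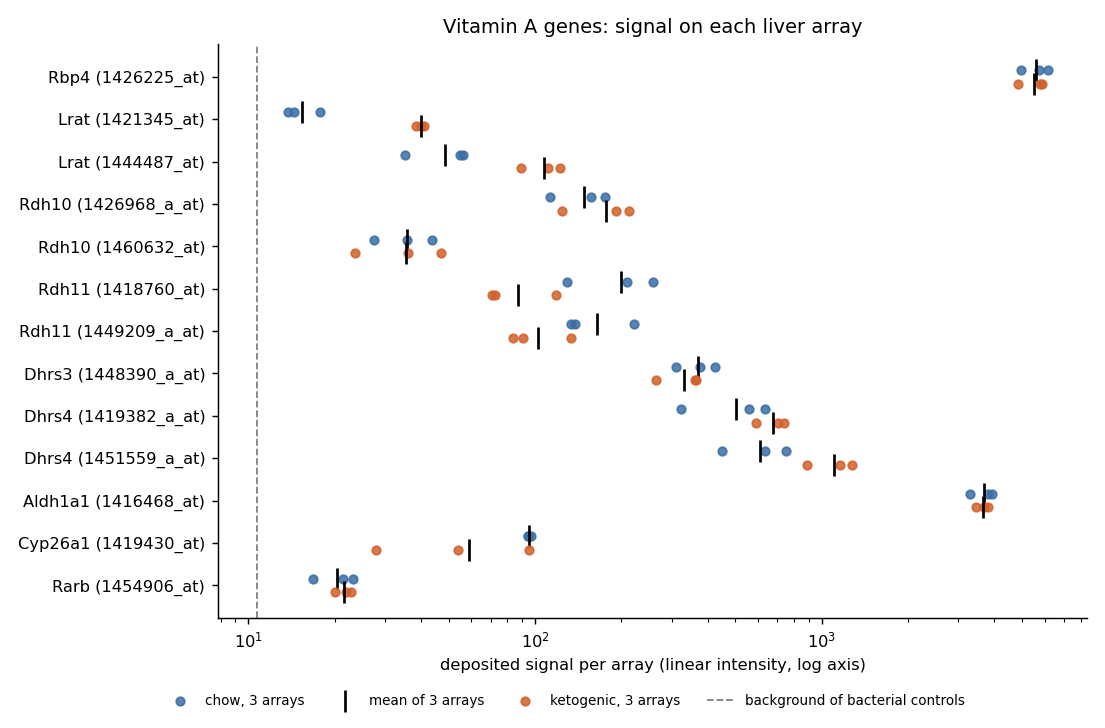
Deposited signal (linear intensity, log axis) of each of the 13 probe sets on each of the 6 arrays, with chow arrays in blue, ketogenic arrays in orange and black ticks at the mean of 3 arrays. The dashed line is the background of 10.8 from bacterial control probe sets. Both Lrat probe sets separate the diets, while Rbp4, Aldh1a1 and Rarb overlap.

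Rbp4 encodes the plasma carrier that takes retinol from hepatocytes to other tissues. Its signal was 5748, 6155 and 4938 on the chow arrays and 5865, 5776 and 4840 on the ketogenic arrays. The diets overlapped, with the highest value on chow and the lowest on the ketogenic diet. The log2 difference was -0.03 ± 0.24 (SE), with a 95% interval of -0.58 to 0.52 and adjusted p = 0.955 in limma, and its sign turned with quantile normalization (0.07) and with scaling to the hybridization controls (0.33). As a fold, ketogenic over chow, the interval runs from 0.668 to 1.43. Its partner in blood, transthyretin (Ttr), which keeps the small carrier from being lost through the kidney, had 4 probe sets with log2 differences of -0.47 to -0.09. On 3 of the 4 all ketogenic arrays lay below all chow arrays, against 5.06% of all probe sets. Of 14 hepatocyte marker probe sets, these 4 among them, 7 lay lower in this way and 1 higher. In limma 0 of the 4 Ttr probe sets passed (adjusted p from 0.329 to 0.861, with 0 at an unadjusted p under 0.05).

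Lrat encodes lecithin:retinol acyltransferase, which joins a fatty acid of a phospholipid to retinol and so makes the retinyl esters of the stellate cell droplets. On probe set 1421345_at its signal was 17.8, 14.4 and 13.8 on chow and 41.1, 40.1 and 38.6 on the ketogenic arrays. All 3 ketogenic arrays lay above all 3 chow arrays. The chow signals were little above the background of the chow arrays, 11.4 to 12.9. On the ketogenic arrays the background was 7.29 to 11.6. The mean rose from 15.3 ± 2.16 to 39.9 ± 1.26 (SD, n = 3). The log2 difference was 1.39 ± 0.24 (SE), which is 2.62-fold as a ratio of geometric means (95% interval 1.80 to 3.82), with adjusted p = 0.0171 in limma. The brighter probe set 1444487_at gave 56.2, 35.2 and 54.6 on chow and 89.3, 111 and 122.5 on the ketogenic arrays. The diets again did not overlap, and the log2 difference was 1.16 ± 0.29 (SE), or 2.24-fold (95% interval 1.43 to 3.51), with adjusted p = 0.0569. The difference was positive on both probe sets under all scalings, and relative to the median of all probe sets it was 1.17 to 1.18 on 1421345_at over the scalings and 0.87 to 0.94 on 1444487_at. The call of 1421345_at was lost without chow array 2 (adjusted p = 0.0506) and without ketogenic arrays 1, 2 and 3 (0.0727, 0.0573 and 0.0591), and with no filter on dim signals (0.0834), in a range from 0.00362, while the value stayed between 0.84 and 1.75. The probe set 1444487_at passed under 6 of 17 alternatives (adjusted p from 0.00405 to 0.193).

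**Figure D2:**
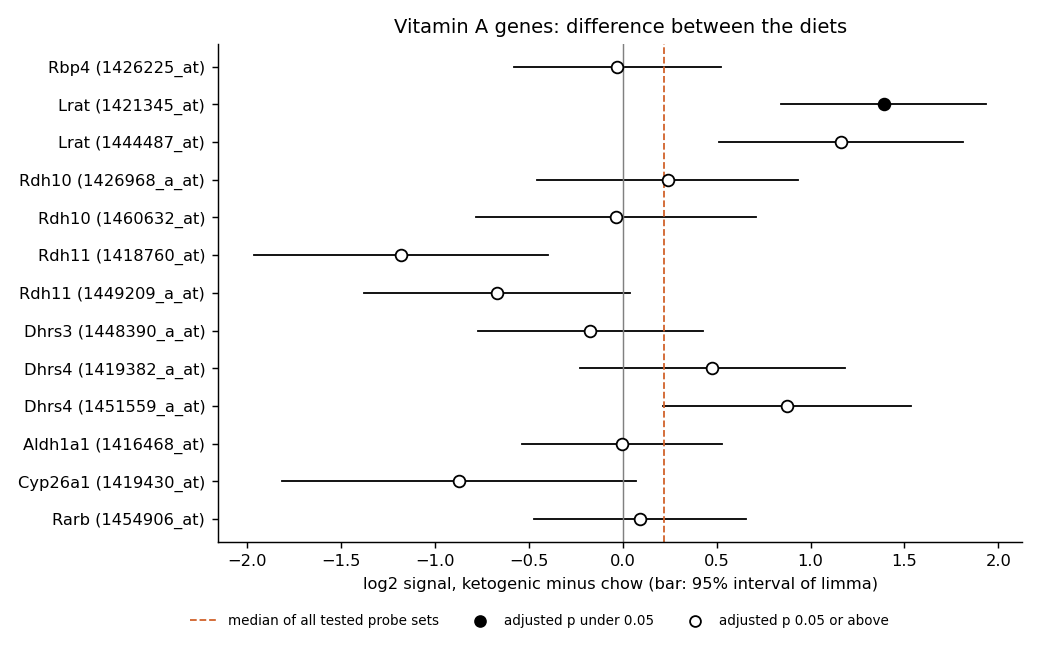
Log2 difference between the diets (ketogenic minus chow) for each of the 13 probe sets, with the 95% interval of limma as a bar and the median of all tested probe sets as a dashed line. Filled points passed the adjusted p of 0.05, which 1421345_at of Lrat alone did, at 1.39.

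In liver Lrat is made chiefly by stellate cells, and other markers of these cells were also higher on the ketogenic diet. In bulk tissue more cells of a type and more RNA per cell cannot be told apart. The marker lists were chosen with earlier results of these data known. Of 16 probe sets of 10 genes listed as markers of quiescent stellate cells, 8 probe sets of 5 genes rose in limma and 0 fell. Across all probe sets 4.08% rose and 0.564% fell. At an unadjusted p under 0.05, 13 of the 16 were higher and 0 lower, against 20% of all probe sets in either direction. The 5 genes were Rgs5 on 4 probe sets, Hand2, Pdgfrb, Hgf and Ngfr. All 3 tested Hgf probe sets, 1 of them among the 8, had a chow mean under the filter on dim signals (10.2) and were tested only because of their ketogenic signals, so they had to differ. Of the 13 other probe sets 7, of 4 genes, rose. Pdgfrb, a growth factor receptor of stellate cells and pericytes, had a signal of 33.2, 18.2 and 23.6 on chow and 75.2, 55.6 and 125 on the ketogenic arrays. Rgs5, a regulator of G protein signalling found in pericytes, rose by 1.32 to 1.79 on the log2 scale. These 8 calls were lost under 3 to 10 of their alternatives each, and the differences were positive in all of them. Reln, whose protein marks quiescent stellate cells, had a log2 difference of 0.95 (adjusted p = 0.0723), and Gfap of -0.48 (adjusted p = 0.518). Lhx2 differed by 0.19 (adjusted p = 0.850) and Ecm1 by 0.49 (0.313). The probe sets of Colec11 differed by 0.95 and 0.97 (0.0916 and 0.0639). Quiescent is the name of the list, and the state of the cells was not measured. The summed signal of the 16 probe sets was 1040 to 1319 on chow and 2181 to 2416 on the ketogenic arrays. None of the list's 26 probe sets lay at the floor on all arrays, and 2 lay under the background on all arrays.

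The mean log2 signal of the 16 quiescent stellate cell marker probe sets was itself 1.13 higher on the ketogenic than on the chow arrays. Subtracting it on the same array therefore had to make the Lrat differences smaller. The log2 signal of 1421345_at minus the mean log2 signal of the 16 marker probe sets was -1.17, -1.18 and -1.32 on chow and -0.93, -0.84 and -1.12 on the ketogenic arrays. The diets did not overlap, and the difference of 0.26 had an exact permutation p = 0.1, the smallest possible. For 1444487_at the same measure was 0.48, 0.11 and 0.67 on chow and 0.19, 0.63 and 0.55 on the ketogenic arrays, which overlap (difference 0.03, exact permutation p = 0.8). Without the 3 Hgf probe sets the differences were 0.32 (exact permutation p = 0.1) and 0.10 (exact permutation p = 0.7). These measures were added after the data were seen, and a ratio within an array shows only whether features changed unequally. On the list for activated, matrix-making stellate cells 14 of 18 probe sets rose and 0 fell, with summed signals of 1270 to 1659 on chow and 4311 to 6174 on the ketogenic arrays. Of the 14, 3 were tested only because of their ketogenic signals, and 11 of the 14 probe sets that reached the filter in both diets rose. Acta2, the smooth muscle actin that marks activation, differed by 0.05 (adjusted p = 0.955) and the protease inhibitor Timp1 by 0.42 (adjusted p = 0.558). Neither passed, unlike most of the list. The collagens Col3a1 (1427883_a_at) and Col1a2 (1450857_a_at), which rose, differed by 2.96 and 2.30 (adjusted p = 0.00727 and 0.0138). All of these genes were named after their values were seen. Of macrophage markers 14 of 16 probe sets rose and 0 fell. Of these, 1 probe set each of Gpnmb and Marco was tested only because of its ketogenic signals, and 12 of the 13 that reached the filter in both diets rose. Of sinusoidal endothelial markers 0 of 13 passed in limma, with 9 higher and 0 lower at an unadjusted p under 0.05. The shares over all probe sets given for the quiescent markers apply to these lists too. The part of these cell types in the value of Lrat was not tested.

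**Figure D3:**
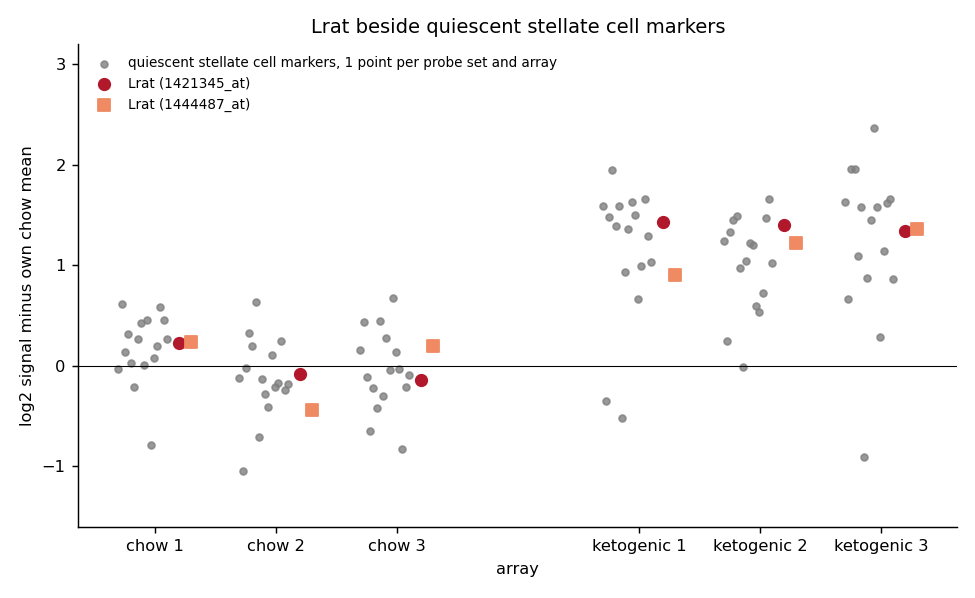
Log2 signal of both Lrat probe sets (red circles and orange squares) and of the 16 quiescent stellate cell marker probe sets (grey) on each array, each minus its own mean on chow. On the ketogenic arrays both Lrat probe sets lie among the markers, of which 8 probe sets rose.

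The genes whose pattern lay nearest to 1421345_at were Myadm and Nagk. Likeness was the root mean square difference of log2 signals over the 6 arrays, each centred on its own mean, among 19828 probe sets of other genes. It was 0.051 for Myadm, a membrane protein of myeloid and other cells, and 0.054 for Nagk, which phosphorylates N-acetylglucosamine. The signal of Myadm was 62.1 ± 6.38 on chow and 157 ± 4.79 on ketogenic arrays (SD, n = 3), and that of Nagk 67.5 ± 9.41 and 171 ± 14.2 (SD, n = 3). Both genes differed between the diets by 1.34 on the log2 scale, near the 1.39 of 1421345_at. For a probe set that separates the diets, this likeness largely follows the size of that difference. Being nearest is therefore no sign of shared regulation.

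Rdh10 encodes the retinol dehydrogenase that makes retinal, the limiting oxidation on the way to retinoic acid in many tissues. On 1426968_a_at its signal was 157, 175 and 113 on chow and 192, 213 and 125 on the ketogenic arrays. The diets overlapped, and the SD within a diet, 31.7 on chow and 46.3 on the ketogenic diet, was larger than the difference between their means, 148 and 177. The difference on the log2 scale was 0.24 ± 0.31 (SE) with adjusted p = 0.698, and on 1460632_at it was -0.03 ± 0.33 (SE) with adjusted p = 0.963. The signs of both probe sets turned under 1 scaling each, to -0.03 with quantile normalization and to 0.33 with scaling to the hybridization controls.

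Rdh11, Dhrs3 and Dhrs4 encode enzymes that reduce retinal back to retinol. The transcript of Rdh11, an enzyme of the endoplasmic reticulum that also reduces other aldehydes, had signals of 259, 130 and 210 on chow and 70.8, 118 and 72.3 on the ketogenic arrays for 1418760_at. All ketogenic arrays lay below all chow arrays, with ketogenic array 2 close to chow array 2. The mean was 199.5 ± 65.2 on chow and 87.0 ± 26.8 on the ketogenic diet (SD, n = 3). The log2 difference was -1.18 ± 0.34 (SE), or 2.27-fold lower, with a 95% interval of -1.96 to -0.40 and adjusted p = 0.0957 in limma. It passed the threshold under 7 of 17 alternatives, among them a common array median (adjusted p = 0.0446), a common trimmed mean (0.0490) and quantile normalization (0.0477), in a range from 0.00779 to 0.284, and its sign was negative in all 17. Relative to the median of all probe sets the difference was -1.40 to -1.45 over the scalings.

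The other Rdh11 probe set, 1449209_a_at, gave 222, 133 and 138 on chow and 83.5, 133 and 90.9 on the ketogenic arrays. The diets were separated only by the step from 133.1 on ketogenic array 2 to 133.3 on chow array 2. Its log2 difference was -0.67 ± 0.31 (SE), with adjusted p = 0.273, and it passed under 0 of 15 alternatives.

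Dhrs3 is a retinal reductase that is itself raised by retinoic acid. Its signal was 425.5, 311 and 378 on chow and 364.5, 361 and 265 on the ketogenic arrays. The diets overlapped, with a log2 difference of -0.17 ± 0.26 (SE), a 95% interval of -0.77 to 0.43 and adjusted p = 0.751. Scaled to the hybridization controls the difference was 0.19.

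Dhrs4 encodes a peroxisomal reductase of retinal and other carbonyl compounds. On 1451559_a_at its signal was 636, 751 and 448 on chow and 1162, 1276 and 887 on the ketogenic arrays. Each ketogenic array lay above each chow array. The mean was 611.5 ± 153 on chow and 1108 ± 200.2 on the ketogenic diet (SD, n = 3). The log2 difference was 0.87 ± 0.29 (SE), or 1.83-fold (95% interval 1.16 to 2.90), with adjusted p = 0.137, and it passed under 4 of 16 alternatives (adjusted p from 0.0195 to 0.347), the scaling to hybridization controls being the only scaling among them. On 1419382_a_at the signals were 633, 556 and 324 on chow and 741, 704 and 588.5 on the ketogenic arrays. These overlapped, with ketogenic array 3 below chow array 1. The log2 difference there was 0.48 ± 0.31 (SE), with adjusted p = 0.429, and both probe sets kept a positive sign under all alternatives.

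**Figure D4:**
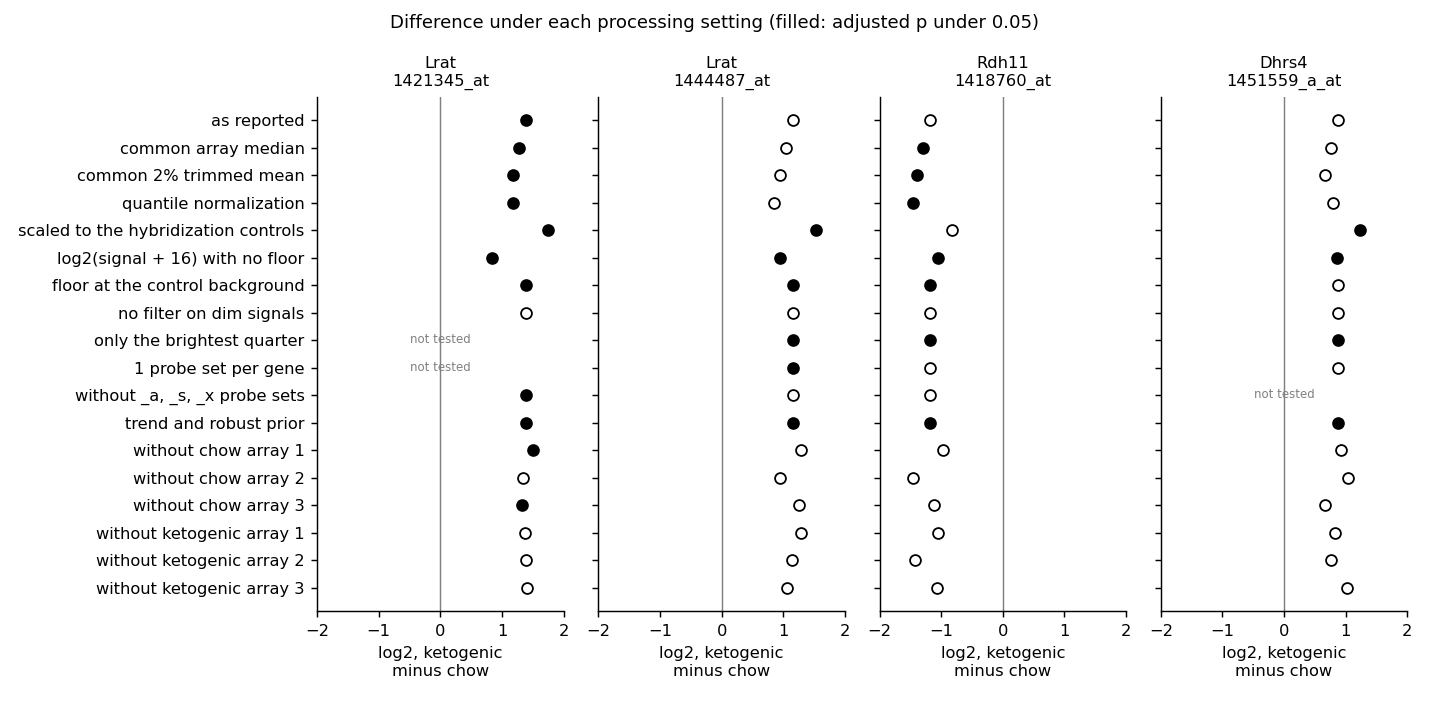
Log2 difference (ketogenic minus chow) of 4 probe sets under each processing setting, filled where the adjusted p was under 0.05. The sign held for each of the 4 under all settings run, from 0.84 to 1.75 for 1421345_at and from -1.46 to -0.82 for 1418760_at, while the side of the threshold changed.

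Aldh1a1 encodes a retinal dehydrogenase, one of the abundant cytosolic enzymes of hepatocytes that yield retinoic acid. Its signal was 3915, 3810 and 3294 on chow and 3698, 3814 and 3453 on the ketogenic arrays. The ketogenic arrays lay inside the range of the chow arrays. The log2 difference was 0.00 ± 0.23 (SE), with a 95% interval of -0.54 to 0.53, which spans 0.690-fold to 1.44-fold, and adjusted p = 0.995. Its sign turned with quantile normalization (0.04) and with scaling to the hybridization controls (0.36).

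Cyp26a1 encodes the hydroxylase that clears retinoic acid, and its promoter carries the DR5 match shown above. Its signal was 97.0, 94.6 and 94.8 on chow and 53.7, 95.1 and 27.8 on the ketogenic arrays. The chow arrays agreed closely, whereas ketogenic array 2 lay at the chow level and ketogenic arrays 1 and 3 below it. The mean was 95.5 ± 1.33 on chow and 58.9 ± 33.9 on the ketogenic diet (SD, n = 3). Ketogenic minus chow, the log2 difference was -0.87 ± 0.41 (SE), with a 95% interval of -1.82 to 0.07 and adjusted p = 0.287 in limma. It was -1.30 (adjusted p = 0.108) without ketogenic array 2 and -0.42 (0.479) without ketogenic array 3, and it passed under 0 of 17 alternatives (adjusted p from 0.0844 to 0.510).

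Rarb, the receptor with the other DR5 match, had a signal of 23.1, 16.8 and 21.4 on chow and 21.9, 22.9 and 20.0 on the ketogenic arrays. The chow values lay little above the background of their arrays, 11.4 to 12.9, and the ketogenic values further above theirs, 7.29 to 11.6. The diets overlapped. Rarb differed by 0.09 ± 0.25 (log2, SE), with a 95% interval of -0.47 to 0.65 and adjusted p = 0.866. Its sign turned to -0.02, -0.12 and -0.11 with a common median, a common trimmed mean and quantile normalization. Among the 71 other genes with a DR5 match in a promoter, 17 had probe sets that could be tested. Of their 31 probe sets 0 were higher and 0 lower in limma, against 4.64% of all probe sets called in either direction. At an unadjusted p under 0.05, 7 were higher and 2 lower, against 20% of all probe sets, and the median log2 difference was 0.26, against 0.22 for all.

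Further genes of the pathway were taken from a list of 63 genes in 8 functional classes and a class of responsive genes. Of these 44 had tested probe sets, 72 in all. Of the 72 probe sets 8 rose, on the 3 genes Lpl, Rdh9 and Tgm2, and 0 fell in limma, against 4.08% and 0.564% of all probe sets. At an unadjusted p under 0.05, 20 were higher and 4 lower, against 20% of all probe sets in either direction. Of the 72, 3 were tested only because of their ketogenic signals (0 of the 8 rises, 2 of the 20) and 1 only because of its chow signals. The number of rises followed the scaling, with 8 to 21 rises and 0 to 4 falls over the 4 scalings. Without the probe sets named _a, _s or _x, which can bind several transcripts, there was 1 rise. That setting took the Rdh9 probe set, all 5 tested Tgm2 probe sets and 1 of the 2 Lpl probe sets out of the test. There were 4 rises without any 1 ketogenic array. The count was 5 without chow array 2.

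Lpl encodes lipoprotein lipase, which frees fatty acids and retinol from circulating particles and which macrophages also make. On 1415904_at its signal was 111, 75.4 and 111 on chow and 325, 456 and 611 on the ketogenic arrays. Both its probe sets separated the diets and rose, by 2.20 ± 0.31 and 2.48 ± 0.31 (log2, SE), with adjusted p = 0.00931 and 0.00567. These calls were lost only with no filter on dim signals (adjusted p = 0.0773 and 0.0607), among 17 and 14 alternatives.

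Rdh9 belongs to a family of closely related retinol and steroid dehydrogenases, and its probe set 1427963_s_at can bind transcripts of several of them, so the gene is uncertain. The signal was 490, 478 and 206 on chow and 1232, 1485 and 1282 on the ketogenic arrays. All ketogenic arrays lay above all chow arrays. The log2 rise was 1.87 ± 0.36 (SE), with adjusted p = 0.0257, and the call was lost without ketogenic arrays 1, 2 and 3 (0.0580, 0.0794 and 0.0865) and with no filter on dim signals (0.141).

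Tgm2 encodes transglutaminase 2, a protein crosslinker induced by retinoic acid in several cell types and abundant in macrophages and endothelium. On 1417500_a_at the signal was 341, 292 and 304 on chow and 930, 1146 and 869 on the ketogenic arrays. All 5 tested Tgm2 probe sets separated the diets, with log2 rises of 1.20 to 1.70 and adjusted p from 0.0107 to 0.0344. The calls of 1417500_a_at and 1426004_a_at were lost, among the 15 alternatives that tested them, only with no filter on dim signals (adjusted p = 0.0656 and 0.0729), and the calls of the other 3 under 6 alternatives each. Macrophage markers were also higher on the ketogenic diet, as given for Lrat, and their part in Tgm2 and Lpl was not tested.

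In the other classes 0 probe sets passed the threshold in limma. At an unadjusted p under 0.05 there were 0 of 10 for delivery and uptake and 1 of 2, higher, for carotene cleavage. For retinal oxidation there were 2 of 5, 1 higher and 1 lower, and for retinoic acid breakdown 0 of 2. Across all probe sets 20% were below that value. The 4 probe sets of Rbp2, Rbp7, Crabp1 and Crabp2, which carry retinoids inside cells, lay under the background on all arrays. Cyp26b1, the related hydroxylase, had a log2 difference of 0.02 ± 0.35 (SE) with adjusted p = 0.981. Aldh1a7, close kin of Aldh1a1, differed by 0.19, the carotene-cleaving Bco2 by -0.28, and the heterodimer partner Rxra by 0.17 on its brightest probe set, with adjusted p = 0.718, 0.602 and 0.772. Of the 12 probe sets of receptors and corepressors 5 were higher and 0 lower at an unadjusted p under 0.05, which were 3 of the corepressor Nrip1 and 1 each of the receptors Rara and Rarg. Those of Rara and Rarg had a chow mean under the filter and were tested only because of their ketogenic signals. Nrip1, Rara and Rarg were named after their values were seen.

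**Figure D5:**
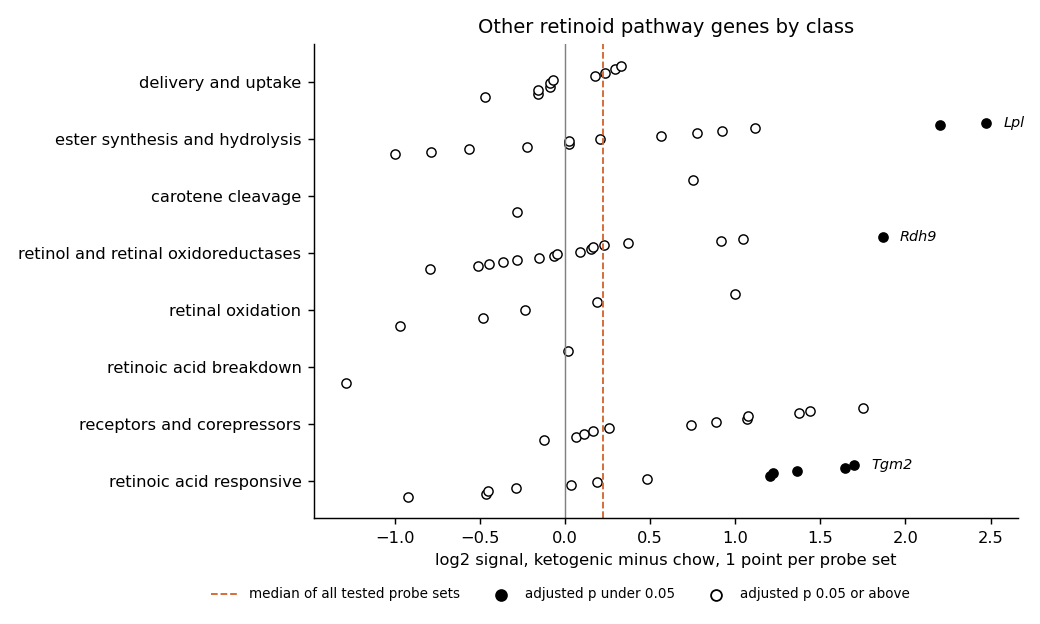
Log2 difference (ketogenic minus chow) of the 72 tested probe sets of other retinoid pathway genes by class, 1 point per probe set, filled where the adjusted p was under 0.05. The filled points are the probe sets of Lpl, Rdh9 and Tgm2, and the dashed line at 0.22 is the median of all tested probe sets.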

How the data were processed

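Liver RNA of both diets was hybridized to Affymetrix arrays. The deposited table holds a linear intensity for each probe set, and the submitters' processing notes name GCOS and MAS5 as the tools of the authors. Their versions and scaling target are not given here. Signals under 1.1 (percentile 10 of all values) were set to 1.1, and log2 was taken. Of 45101 probe sets, 64 were controls. The 22515 whose mean log2 reached the median of the table (signal 10.2) were tested, all 13 member probe sets among them, 0 of which passed through 1 diet only. The platform annotation gave 1 symbol for 34945 probe sets and for 13 controls, several for 932, and did not list 9211. For the 13, gene IDs matched RefSeq and 0 symbols differed. limma 3.58.1 (lmFit, eBayes) under R 4.3.3 tested ketogenic against chow, two-sided, with 6 arrays, no covariates, 4 residual and 4.68 prior degrees of freedom, and was tested on simulated data. Background was taken per array as percentile 95 of 27 bacterial control probe sets, and averaged on the log2 scale to 10.8. The number of arrays limits the precision. Over all probe sets the log2 signals of 2 arrays correlated at 0.896 to 0.912 within a diet and at 0.872 to 0.897 across diets, and 0 pairs were identical. Replicates were numbered in the order of deposition. Named were all members, pathway genes past the threshold, the brightest gene of each class without one, quiescent stellate cell markers past the threshold, and the 2 genes nearest to a changed member. Reln, Gfap, Lhx2, Ecm1, Colec11, Acta2, Timp1, Col3a1, Col1a2, Tat, Epcam, Krt7, Cftr and Sox9 were added after their values were seen. The members, lists and tests were chosen with earlier results of these data known. Alternatives were other scalings, floors, filters, probe set choices, priors, and leaving out each array. Of cholangiocyte, lymphocyte, adipocyte and exocrine pancreas markers, 0 of 4, 0 of 4, 0 of 1 and 0 of 1 tested probe sets passed in limma, with 0, 0, 0 and 1 at an unadjusted p under 0.05. These lists held 9, 10, 3 and 3 probe sets, and the rest were too dim for the filter. The tested Epcam probe set (1447899_x_at) gave 29.8, 29.5 and 5.2 on chow and 32, 44 and 29 on ketogenic arrays. These overlapped (adjusted p = 0.387 in limma). The untested Epcam probe set (1416579_a_at) gave 0.9, 0.6 and 0.7 on chow and 34.5, 21.7 and 56.1 on ketogenic arrays. That of Krt7 gave 1.4, 1.3 and 2.5 on chow and 8.1, 12.5 and 17.2 on ketogenic arrays. Both separated the diets, while the other untested cholangiocyte probe sets, of Cftr and Sox9, overlapped.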

Additional observations from a re-analysis of the deposited data

How the results depend on the processing

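No paired analysis was possible because the labels carry no replicate numbers shared by the diets. The 1045 changed probe sets numbered 5113 after scaling to the hybridization controls, 2269 with log2(signal + 16), 1942 with a floor at the background, 178 with no filter on dim signals, 622 without multi-transcript probe sets and 1872 with a trended robust prior, and 310 to 1037 when 1 array was left out (458, 449 and 310 without ketogenic arrays 1, 2 and 3). The number of changed member probe sets, 1 as reported, was 2 with a common median, trimmed mean or quantile normalization, 3 with hybridization control scaling, a floor at the background or only probe sets above the 75th percentile, 4 with log2(signal + 16) or the trended robust prior, 0 with no filter, and 0 to 1 when 1 array was left out. That of other pathway probe sets, 8 as reported, was 14 with a common median or trimmed mean, 21 with hybridization control scaling or log2(signal + 16), 15 with a floor at the background, 0 with no filter, 19 above the 75th percentile, 4 with 1 probe set per gene, 1 without multi-transcript probe sets, 20 with the trended robust prior and 4 to 10 when 1 array was left out. Signs turned for probe sets near 0. With quantile normalization the log2 difference was 0.0672 for Rbp4, -0.0307 for Rdh10 (1426968_a_at), 0.0438 for Aldh1a1 and -0.114 for Rarb. Scaled to the hybridization controls it was 0.331 for Rbp4, 0.328 for Rdh10 (1460632_at), 0.189 for Dhrs3 and 0.358 for Aldh1a1. For Rarb it was -0.0208 with a common median and -0.122 with a common trimmed mean. When 1 array was left out it ranged from -0.120 to 0.0581 for Rbp4, from -0.265 to 0.234 for Rdh10 (1460632_at), from -0.0809 to 0.0437 for Aldh1a1 and from -0.0440 to 0.186 for Rarb, turning sign without chow array 2 for each of the 4, without ketogenic array 3 for Rbp4, Rdh10 and Aldh1a1, and without chow array 1 for Aldh1a1. The cause was not tested. Of 209 comparisons of member probe sets with their reported value, 169 kept sign and side of the threshold, 18 turned sign, 17 newly passed and 5 no longer passed. The array level, 46.5 on chow and 53.9 on the ketogenic diet as trimmed mean, was 11.6 and 12.6 as median signal. Signals near the background limit Rarb and 1421345_at of Lrat.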
